A study of Mus musculus with 15 samples.

Results

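The cholesterol synthesis and sterol control genes described here are 29 genes taken by name out of 55335 genes measured by RNA sequencing in the colon of 15 mice. They comprise 7 enzymes of the mevalonate arm, 12 enzymes of the steps from squalene to cholesterol, 4 genes of sterol sensing, 2 genes of uptake and carriage, and 4 genes of export, receptor turnover and storage. Each of the 29 matched 1 gene identifier in every file. Values are FPKM, which count the sequenced fragments of a gene relative to the length of its transcript and to the size of the library. Of the 29 members, 28 reached the level required for testing, which was 1 FPKM in at least 5 libraries, and Npc1l1 did not.

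The mice formed 3 groups of 5. DSS_ICB_Fp mice received dextran sulfate sodium (DSS), immune checkpoint blockade (ICB) and, by gavage, the gut bacterium Faecalibacterium prausnitzii. DSS_ICB mice received DSS and ICB, and DSS mice are labelled with DSS alone. All 15 mice therefore carried DSS, an agent given to rodents to damage the colonic mucosa, and mice without DSS are not analysed here. The antibodies used, any sham gavage or isotype treatment, and the strain, sex, age and housing of the mice are not given in the labels. Whole colon tissue was extracted, so a lower value can stand for fewer cells of a type or for less RNA per cell, and these cannot be told apart.

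Animal cells build cholesterol from acetyl-CoA, first through mevalonate and its isoprenoid products and then through squalene and a series of sterols. Transcription of the enzymes is set by SREBP-2, the product of Srebf2, which Scap carries out of the endoplasmic reticulum when sterols are scarce and which the Insig proteins hold back when sterols are plentiful. Surplus cholesterol is esterified, or leaves the cell through transporters whose genes are activated by the oxysterol receptors LXR. The intestinal epithelium both makes cholesterol and absorbs it.

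Estimated depth lay between 15.47 and 24.94 M (mega) fragments per library. All 8 epithelial markers passed the level for testing. Library DSS_ICB 3 stood apart from the others: its rank correlation with the other 14 libraries had a median of 0.725, its epithelial markers summed to 681.4 FPKM against 3519.6 FPKM in the next lowest library, its smooth muscle markers summed to 14744.9 FPKM, and 33.17% of its FPKM came from mitochondrially encoded genes. Library DSS_ICB 5 had a median rank correlation of 0.864 and the highest macrophage marker sum, 992.8 FPKM. The other 13 libraries had rank correlations of 0.922 to 0.95. Results are therefore given with and without these libraries.

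No member differed between groups beyond the spread between mice after adjustment over all 14385 genes tested, in any of the 3 comparisons. Between DSS_ICB and DSS colons the log2 differences were below 0 for 27 of 28 members, all 19 enzymes among them, where 47.2% of all tested genes were below 0. Without library DSS_ICB 3 they were below 0 for 19 members, or 67.9%, where 38.6% of all tested genes were. Without DSS_ICB 3 and DSS_ICB 5 together they were below 0 for 13 members, or 46.4%, where 39.1% of all tested genes were. The 19 enzymes then had a median of 0.01, with 13 (68.4%) above 0, where 60.9% of all tested genes were. All 7 of the mevalonate arm were among the 13, Acat2 and Hmgcs1 by values that round to 0.00. Between DSS_ICB_Fp and DSS colons the log2 differences lay between -0.29 and 0.21. In the summed level of the 19 enzymes, mice of the same group differed more than the group means did. The enzymes tended to be high or low together in a mouse. Not every member was so variable within groups. Ebp had a log2 difference of 0.68 in DSS_ICB_Fp against DSS_ICB, with an SD of 0.04 in DSS_ICB_Fp mice and 0.67 in DSS_ICB mice.

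**Figure D1:**
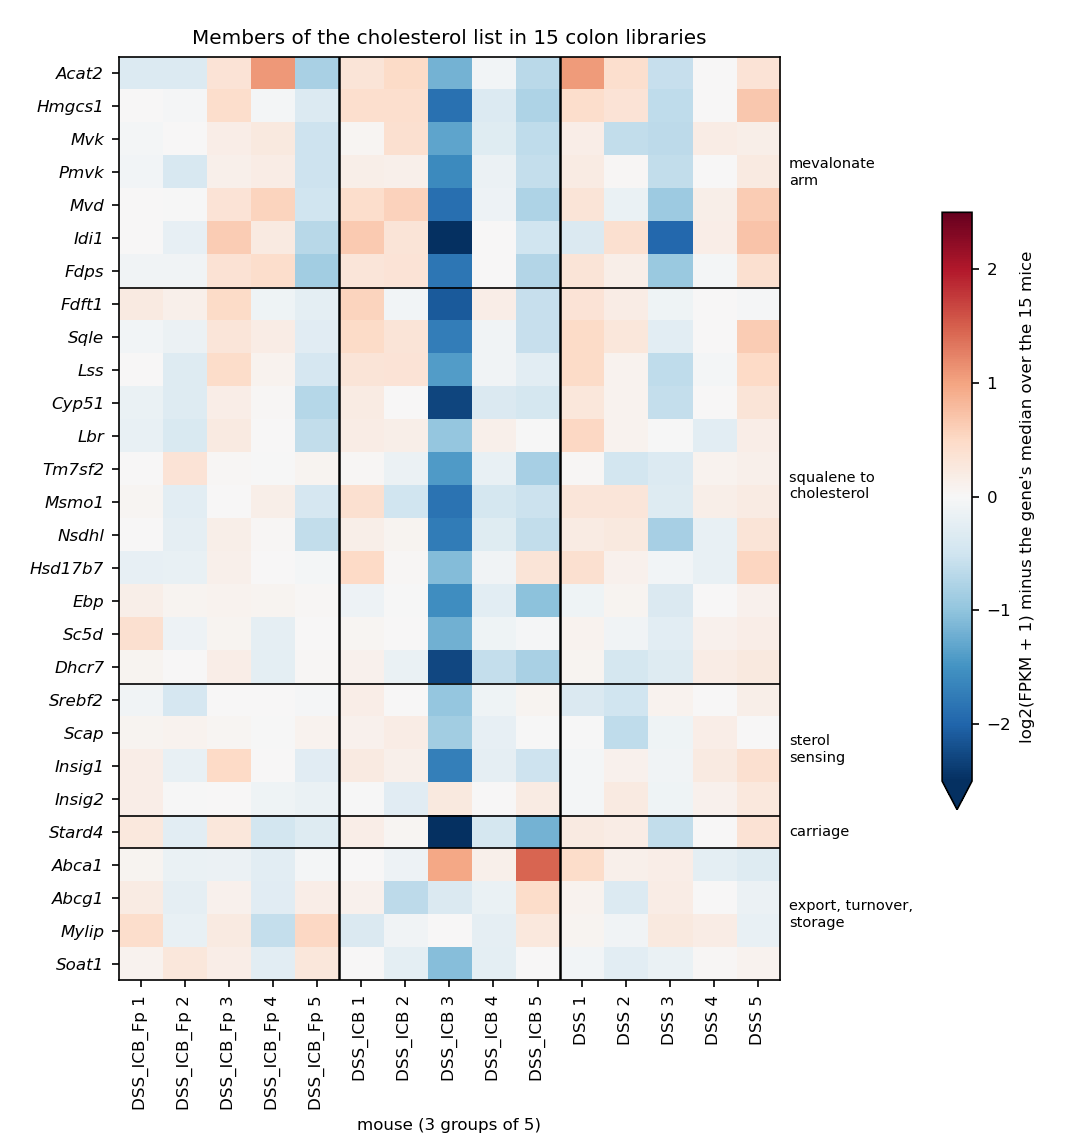
Level of each of the 28 tested members (rows, grouped by role) in each mouse (columns, 5 per group), as log2(FPKM + 1) minus the median of that gene over the 15 mice. Blue is below and red above that median; the DSS_ICB 3 column is blue for every enzyme, and DSS_ICB 5, DSS 3 and DSS_ICB_Fp 5 are paler blue columns.

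For DSS_ICB_Fp against DSS_ICB, 0 of 28 members passed an adjusted p of 0.05 (limma with Benjamini-Hochberg adjustment), where 0.132% of all tested genes did. At an unadjusted p of 0.05, 4 members were higher (Ebp, Tm7sf2, Soat1 and Dhcr7) and 1 was lower (Abca1), against a background of 9.34% higher and 12.4% lower. In that comparison the adjusted background was 0.00695% higher and 0.125% lower. The median log2 difference of the members was 0.33, with 25 of 28 above 0, while that of all tested genes was -0.04. Without DSS_ICB 3 the median was 0.04 and 1 member (Ebp) had an unadjusted p under 0.05. Without DSS_ICB 3 and DSS_ICB 5 together it was -0.11, and no member had. The count of 5 also came down to 1 without DSS_ICB_Fp 2, to 2 without DSS_ICB 5, DSS_ICB_Fp 3 or DSS_ICB_Fp 5, and to 3 without DSS_ICB_Fp 1. It was 6 without DSS_ICB 2 and 7 without DSS_ICB 1. Other processing gave 3 with a filter at 5 FPKM or with array quality weights, and 2 with a fit of the 2 compared groups alone or relative to epithelial markers.

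For markers of cell types in the same comparison, the log2 differences were above 0 for 8 of 8 epithelial markers (median 0.69), 5 of 6 markers of absorptive colonocytes (median 1.82) and 6 of 6 goblet markers (median 1.31). They were below 0 for 6 of 6 fibroblast markers (median -0.90), 5 of 5 endothelial markers (median -0.82) and 6 of 6 neutrophil markers (median -3.10, 5 of them past an adjusted p of 0.05 in limma). Proliferating crypt markers, unlike the other epithelial lists, were also below 0 for 5 of 5 (median -0.35). So were 7 of 7 macrophage markers (median -0.50) and 5 of 5 erythroid markers (median -2.32). Epithelial markers summed to 4313.1 to 6603.5 FPKM in DSS_ICB_Fp mice, 681.4 to 5752.9 FPKM in DSS_ICB mice and 4329.6 to 5796.2 FPKM in DSS mice. Neutrophil markers summed to 1.5 to 32.5 FPKM in DSS_ICB_Fp mice, 126.5 to 2010.5 FPKM in DSS_ICB mice and 20.2 to 57.0 FPKM in DSS mice. Without DSS_ICB 3 the epithelial median was 0.13 and the neutrophil median -2.98 (5 markers then passed the level for testing). The part of these cell types in the differences of the members was not tested.

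For DSS_ICB against DSS, limma called 0 of 28 members, with a background of 0.0209%. Msmo1 and Ebp were lower at an unadjusted p of 0.05, and none was higher, against a background of 4.22% lower and 7.08% higher. The median log2 difference of the members was -0.36, and that of all tested genes was 0.02. By role the medians were -0.36 for the mevalonate arm, -0.46 for squalene to cholesterol, -0.05 for sterol sensing and -0.10 for export, turnover and storage. Without DSS_ICB 3 the median of the members was -0.07 and no member had an unadjusted p under 0.05, and without both libraries that stood apart the median was 0.00. The count of 2 was 0 without DSS 1, DSS 4 or DSS 5. It was 1 without DSS 2, without DSS_ICB 5 or without any 1 of the DSS_ICB_Fp libraries, which enter the estimate of the spread. It was 6 without DSS_ICB 2 and 7 without DSS_ICB 1. Median-of-ratios scaling gave 4, upper-quartile scaling 5, array quality weights 1, and a fit of the 2 groups alone or a scaling to epithelial markers 0. The 8 epithelial, 6 absorptive and 6 goblet markers all had log2 differences below 0, with medians of -0.66, -1.21 and -0.90, and the 5 endothelial and 6 neutrophil markers all had differences above 0, with medians of 0.73 and 2.21. Proliferating crypt markers had a median of -0.25, with 4 of 5 below 0. Without DSS_ICB 3 the medians were -0.09 for epithelial, -0.58 for absorptive, -0.08 for goblet and 0.26 for proliferating crypt markers. They were 0.56 for endothelial markers and 1.92 for neutrophil markers (5 tested). The part of all these cell types in the differences of the members was not tested.

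For DSS_ICB_Fp against DSS, limma called 0 of 28 members (background 0.0%), and 0 had an unadjusted p under 0.05 (background 1.41%, of which 0.591% higher and 0.82% lower). The members were split, with 13 log2 differences above 0 and 15 below, and a median of -0.06. The standard errors, 0.12 for Insig2 to 0.64 for Idi1 on the log2 scale, limit how small a difference could have been seen. They rest on a spread estimated from all 3 groups, although the DSS_ICB mice are not part of this comparison. The median SD of the enzymes was 0.766 in DSS_ICB, 0.295 in DSS_ICB_Fp and 0.361 in DSS mice. Without DSS_ICB 3 and DSS_ICB 5 no member had an unadjusted limma p under 0.05 either. Of 14122 genes then tested, 283 were higher and 414 lower at that p. The first 2 comparisons share the DSS_ICB mice, so their opposite signs rest on the same 5 libraries.

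**Figure D2:**
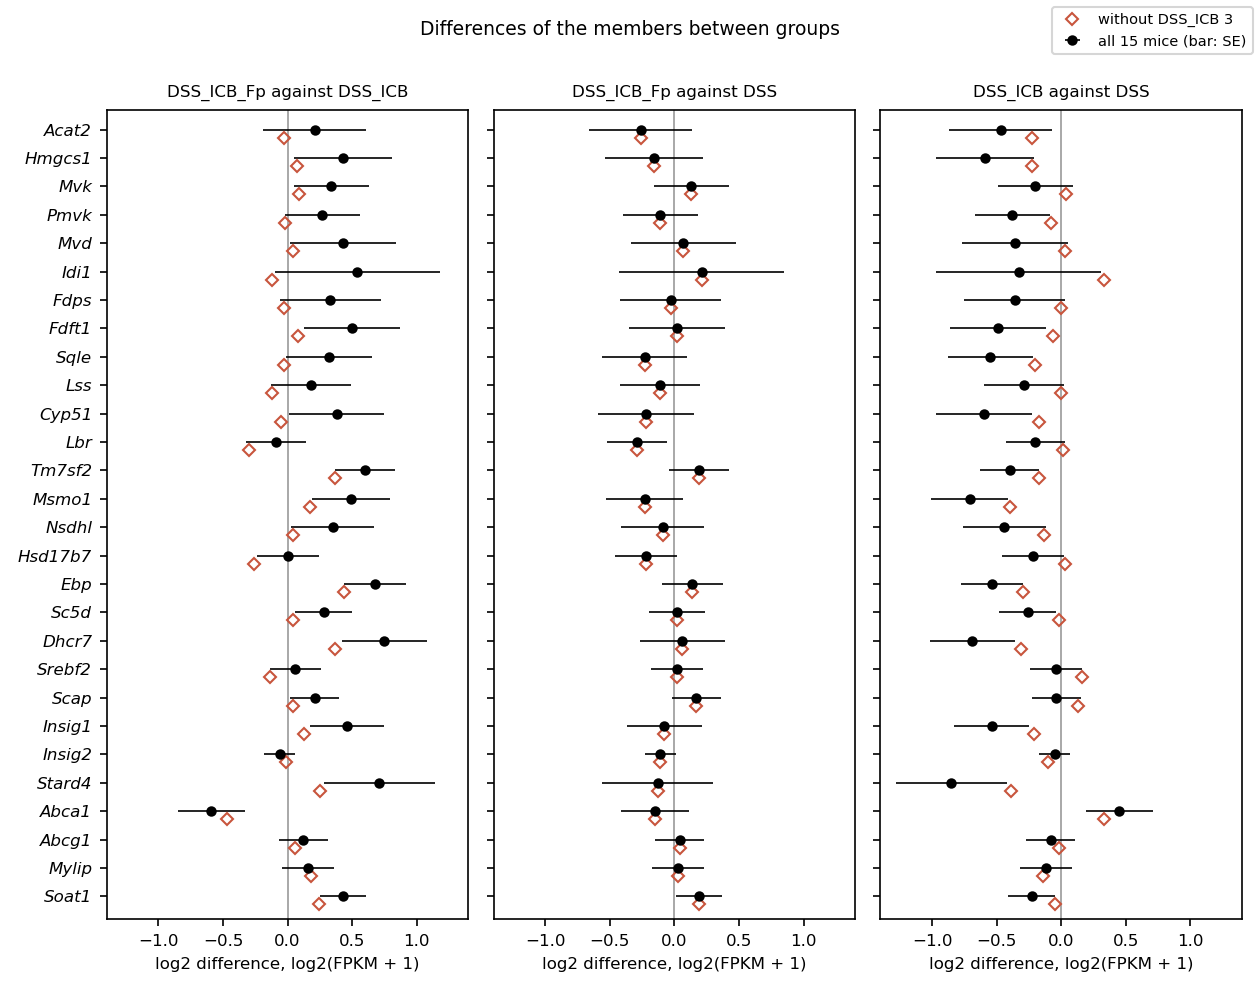
Log2 difference of each tested member in the 3 comparisons, on the log2(FPKM + 1) scale. Black points with bars give the estimate from all 15 mice and its SE, and open diamonds the estimate without DSS_ICB 3; in DSS_ICB against DSS most diamonds sit nearer to 0 than the points.

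Before the values by role, the promoters of 3 members are printed, because these members stand for the patterns described below: Hmgcs1 and Idi1, enzymes that were high or low in the same mice, and Abca1, an exporter that was highest in DSS_ICB 3 and DSS_ICB 5, where they were low. Capitals mark the TCACNCCAC form of the sterol response element and the CCAAT box on either strand (ATTGG on the strand printed). The sequences are from RefSeq on GRCm38.p6, 150 bases from position -190 to -41 relative to the annotated start. They lie at chr13:119690161-119690310 on the plus strand (Hmgcs1), chr13:8885416-8885565 on the plus strand (Idi1) and chr4:53159936-53160085 on the minus strand (Abca1).
Hmgcs1: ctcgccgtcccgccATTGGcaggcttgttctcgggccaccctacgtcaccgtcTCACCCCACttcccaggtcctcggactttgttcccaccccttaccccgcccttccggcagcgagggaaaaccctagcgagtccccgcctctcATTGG
Idi1: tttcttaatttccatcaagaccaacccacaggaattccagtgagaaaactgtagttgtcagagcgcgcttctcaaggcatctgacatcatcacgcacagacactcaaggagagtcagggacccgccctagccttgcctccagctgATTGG
Abca1: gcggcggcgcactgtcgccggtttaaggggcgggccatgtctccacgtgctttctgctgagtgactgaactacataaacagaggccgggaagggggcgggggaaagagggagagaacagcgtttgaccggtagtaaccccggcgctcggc

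RefSeq promoter windows around the annotated start were matched for 24 of the 29 members, in 30 windows. The members without one were Fdps, Sqle, Stard4, Fdft1 and Abcg1. The motifs were searched on both strands, and matches of different motifs were counted separately even where they overlap. TCACNCCAC was found in 1 of 30 windows, that of Hmgcs1, and in 1.24% of all 32851 windows. Only this form of the sterol response element was searched, so windows without it are not shown to lack one. Elements bound by LXR were not searched. CCAAT, the core bound by NF-Y, was found in 21 of 30 windows (70.0%) and in 37.4% of all windows. GGGCGG, a GC box bound by Sp1, was found in 25 of 30 windows and in 35.7% of all windows, and CACGTG, an E-box, in 7 of 30 and in 7.15%. A match is only a stretch of letters, and binding was not measured.

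In the mevalonate arm no enzyme separated any pair of groups. Hmgcs1 (ENSMUSG00000093930, GRCm38 chromosome 13, 119690379 to 119708260, plus strand) encodes the cytosolic HMG-CoA synthase and had the highest level of the enzymes per length. It had 73.6, 71.4, 100.0, 71.2 and 57.3 FPKM in DSS_ICB_Fp mice 1 to 5, against 97.7, 98.9, 19.4, 57.7 and 42.7 FPKM in DSS_ICB mice 1 to 5 and 99.4, 93.1, 47.0, 73.2 and 117 FPKM in DSS mice 1 to 5. All 3 groups overlapped, with DSS_ICB mice both near the top and at the bottom. The means were 74.7 ± 15.6 FPKM in DSS_ICB_Fp mice, 63.3 ± 34.7 FPKM in DSS_ICB mice and 85.9 ± 26.7 FPKM in DSS mice (SD, n = 5 each). The log2 difference was -0.59 (SE 0.38, limma adjusted p = 0.518) in DSS_ICB against DSS and -0.23 without DSS_ICB 3. It was 0.43 in DSS_ICB_Fp against DSS_ICB, and 0.07 without DSS_ICB 3.

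Idi1, the isomerase that interconverts the isoprene building blocks, had the widest range of the members. Its levels were 34.5, 30.0, 54.4, 40.5 and 21.1 FPKM in DSS_ICB_Fp mice, against 54.9, 43.2, 2.88, 34.5 and 24.0 FPKM in DSS_ICB mice and 26.7, 45.7, 8.06, 38.7 and 56.9 FPKM in DSS mice. The lowest 2 values stood in different groups, DSS_ICB 3 and DSS 3, and the highest mouse was 19.8 times the lowest, or 7.06 times without DSS_ICB 3. The log2 difference in DSS_ICB against DSS was -0.33 (SE 0.64, limma adjusted p = 0.84) and turned to 0.33 without DSS_ICB 3. It was 0.54 (SE 0.64) in DSS_ICB_Fp against DSS_ICB and turned to -0.12 without that library.

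The other 5 mevalonate enzymes were Acat2, a thiolase that joins acetyl-CoA units; the kinases Mvk and Pmvk; the decarboxylase Mvd; and Fdps, which makes farnesyl diphosphate. Each had its lowest value in DSS_ICB 3. Acat2 ranged from 6.88 to 36.8 FPKM, with its highest values in DSS_ICB_Fp 4 (36.8 FPKM) and DSS 1 (36.0 FPKM). Mvk averaged 9.09 ± 1.89 FPKM in DSS_ICB_Fp mice, 7.51 ± 3.56 FPKM in DSS_ICB mice and 8.39 ± 2.64 FPKM in DSS mice (SD, n = 5 each). The levels of Pmvk, Mvd and Fdps reached 21.5, 37.1 and 37.4 FPKM at most, and their log2 differences in DSS_ICB against DSS were -0.38, -0.36 and -0.36, which became -0.08, 0.03 and 0.00 without DSS_ICB 3.

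**Figure D3:**
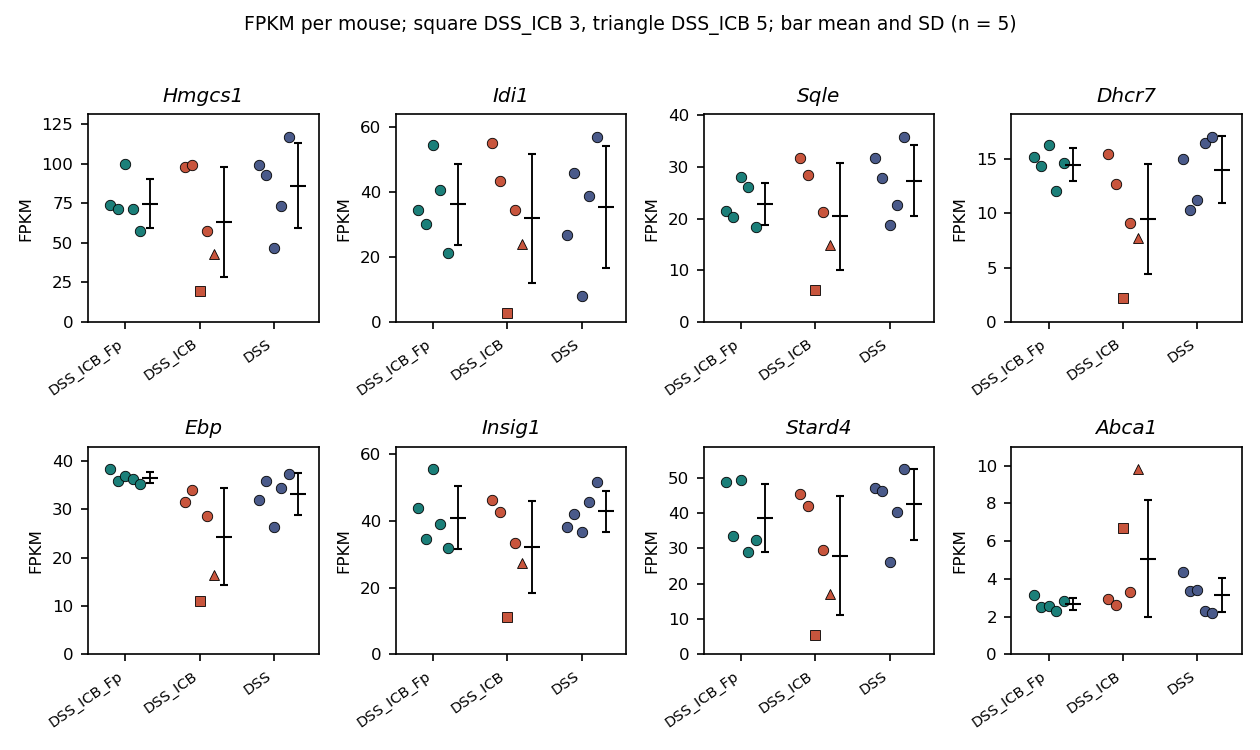
FPKM per mouse for 8 members, with each panel's axis starting at 0 and a bar for the mean and SD of the 5 mice to the right of each group. Squares mark DSS_ICB 3 and triangles DSS_ICB 5, which are the lowest 2 DSS_ICB mice in the first 7 panels and the highest 2 of all 15 mice for Abca1.

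The steps from squalene to cholesterol held the members with the largest log2 differences among the enzymes. Ebp (ENSMUSG00000031168, GRCm38 chromosome X, 8185329 to 8193512, minus strand), which encodes the sterol isomerase that shifts a ring double bond late in the pathway, was the only member with a pair of groups that did not overlap. It had 38.3, 35.9, 36.8, 36.2 and 35.2 FPKM in DSS_ICB_Fp mice, against 31.4, 34.0, 11.0, 28.5 and 16.4 FPKM in DSS_ICB mice and 31.8, 35.9, 26.4, 34.4 and 37.3 FPKM in DSS mice. Every DSS_ICB_Fp mouse was above every DSS_ICB mouse, by a narrow margin over DSS_ICB 2, while DSS mice overlapped both groups. Over all tested genes, 0.945% showed DSS_ICB_Fp above DSS_ICB without overlap and 2.46% showed it below. In DSS_ICB_Fp against DSS that share was 0.195% in each direction, and in DSS_ICB against DSS it was 1.21% above and 0.327% below. Ebp had a log2 difference of 0.68 (SE 0.24, limma unadjusted p = 0.0131, adjusted p = 0.141) in that comparison, 0.44 without DSS_ICB 3 and 0.22 without both libraries that stood apart. In DSS_ICB against DSS the log2 difference of Ebp was -0.54 (SE 0.24, limma adjusted p = 0.435), and -0.30 without DSS_ICB 3.

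Dhcr7 encodes the reductase that makes cholesterol from its dehydro precursor. It had 15.1, 14.3, 16.2, 12.0 and 14.6 FPKM in DSS_ICB_Fp mice, against 15.4, 12.7, 2.18, 9.09 and 7.75 FPKM in DSS_ICB mice and 15, 10.3, 11.2, 16.4 and 17.0 FPKM in DSS mice. DSS_ICB mice 3, 4 and 5 were below all mice of the other 2 groups, and DSS_ICB 1 was among the highest. Dhcr7 had a log2 difference of 0.75 (SE 0.33, limma adjusted p = 0.204) in DSS_ICB_Fp against DSS_ICB and -0.69 (SE 0.33, limma adjusted p = 0.449) in DSS_ICB against DSS. Without DSS_ICB 3 these became 0.37 and -0.31.

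Msmo1 encodes the oxidase that starts removal of methyl groups from the sterol ring. Its levels were 25.5, 20.4, 24.7, 27.5 and 18.3 FPKM in DSS_ICB_Fp mice, against 33.1, 17.2, 6.11, 17.9 and 16.8 FPKM in DSS_ICB mice and 30.9, 30.9, 19.5, 27.4 and 28.7 FPKM in DSS mice. Of the DSS_ICB mice, 4 were below every DSS mouse and 1 was above every DSS mouse, so the groups interleaved. The log2 difference in DSS_ICB against DSS was -0.71 (SE 0.30, limma unadjusted p = 0.0314, adjusted p = 0.43). It was -0.40 without DSS_ICB 3 and -0.31 without both libraries, the largest of the members that remained below 0 without both.

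Tm7sf2 and Lbr encode sterol reductases that act at the same step, Tm7sf2 in the endoplasmic reticulum and Lbr in the inner nuclear membrane, where it also binds lamin B. Tm7sf2 had 4.48, 5.92, 4.60, 4.42 and 4.74 FPKM in DSS_ICB_Fp mice, against 4.59, 3.98, 1.04, 3.79 and 2.09 FPKM in DSS_ICB mice and 4.63, 3.0, 3.32, 4.81 and 4.95 FPKM in DSS mice. DSS_ICB_Fp mice lay in the upper part of the range and overlapped both groups, and the log2 difference against DSS_ICB was 0.60 (SE 0.23, limma unadjusted p = 0.0225, adjusted p = 0.168), 0.37 without DSS_ICB 3 and 0.18 without DSS_ICB 3 and DSS_ICB 5. Tm7sf2 shares 532 exonic bases, 12.1% of its exons, with Vps51 on the same strand, so its reads could be split between them. Lbr had 20.6, 18.0, 27.7, 23.6 and 15.1 FPKM in DSS_ICB_Fp mice, against 26.8, 26.3, 11.6, 25.8 and 23.4 FPKM in DSS_ICB mice and 34.0, 25.1, 23.3, 19.6 and 26.6 FPKM in DSS mice. DSS_ICB 3 was the lowest of all 15 mice for Lbr, and the other mice of the 3 groups overlapped. In DSS_ICB_Fp against DSS_ICB the log2 difference was -0.09, which was opposite in sign to that of Tm7sf2; the 2 differences were not tested against each other.

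Sqle encodes squalene epoxidase, an oxygen-using step early in this arm. Its levels were 21.5, 20.3, 28.0, 26.0 and 18.4 FPKM in DSS_ICB_Fp mice, against 31.7, 28.5, 6.13, 21.2 and 14.8 FPKM in DSS_ICB mice and 31.7, 27.8, 18.7, 22.6 and 35.8 FPKM in DSS mice. The groups overlapped, with DSS_ICB 3 and DSS_ICB 5 lowest of all mice. The log2 difference in DSS_ICB against DSS was -0.55 (SE 0.33, limma adjusted p = 0.504), and -0.20 without DSS_ICB 3. For DSS_ICB_Fp against DSS_ICB it was 0.32 and turned to -0.03 without DSS_ICB 3.

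Hsd17b7 encodes the reductase that completes removal of each of those methyl groups. It had 4.10, 4.17, 5.42, 4.90 and 4.73 FPKM in DSS_ICB_Fp mice, against 7.34, 5.02, 1.77, 4.56 and 6.40 FPKM in DSS_ICB mice and 6.74, 5.39, 4.66, 4.20 and 7.53 FPKM in DSS mice. Its highest DSS_ICB values were those of mice 1 and 5, and mouse 5 was thus not low for this gene, unlike for most enzymes. The log2 difference in DSS_ICB against DSS was -0.22 (SE 0.24, limma adjusted p = 0.706).

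The other 5 enzymes of the arm were Fdft1, the squalene synthase; Lss, which closes the rings to lanosterol; Cyp51, a demethylase of lanosterol; Nsdhl, a sterol dehydrogenase; and Sc5d, a sterol desaturase. Each had its lowest value in DSS_ICB 3, and the DSS_ICB 3 level of Cyp51 was 6.61 FPKM, where the other 14 mice had 21.8 to 45.2 FPKM. Fdft1 averaged 27.5 ± 5.77 FPKM in DSS_ICB_Fp mice, 22.2 ± 12.2 FPKM in DSS_ICB mice and 26.8 ± 3.69 FPKM in DSS mice (SD, n = 5 each). Its exons share 774 bases, 18.3%, with Ctsb on the opposite strand, and whether the libraries kept strand is not given in the sources used here. Exons of Scap and Hmgcs1 likewise share 13.2% and 12.1% of their bases with another annotated gene on the opposite strand. Exons of Fdps share 26.7% with Gm43738 on the same strand, so reads of Fdps could be split between them. The log2 differences of the 5 enzymes in DSS_ICB against DSS ran from -0.60 for Cyp51 to -0.26 for Sc5d, and without DSS_ICB 3 from -0.17 for Cyp51 to 0.00 for Lss.

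Of the 4 genes of sterol sensing, Insig1 had log2 differences of the size seen in the enzymes, and those of Srebf2, Scap and Insig2 were nearer to 0. Srebf2, which encodes SREBP-2, had 24.9, 19.6, 26.5, 26.5 and 26.0 FPKM in DSS_ICB_Fp mice, against 29.8, 26.7, 13, 24.4 and 27.9 FPKM in DSS_ICB mice and 20.3, 18.4, 28.1, 26.7 and 29.6 FPKM in DSS mice. Outside DSS_ICB 3 the 14 values lay within 1.62 times of each other. DSS 3 and DSS_ICB 5, which were low for most enzymes, were among the higher mice for Srebf2. Its log2 difference was -0.04 (SE 0.20) in DSS_ICB against DSS and 0.06 (SE 0.20) in DSS_ICB_Fp against DSS_ICB, with limma adjusted p of 0.941 and 0.882. Without DSS_ICB 3 both differences changed sign, to 0.16 and -0.14.

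Scap, the escort of SREBP-2, had 8.47, 8.59, 8.41, 8.04 and 8.59 FPKM in DSS_ICB_Fp mice, against 8.80, 9.37, 3.96, 6.82 and 7.97 FPKM in DSS_ICB mice and 7.96, 4.87, 7.46, 9.20 and 8.06 FPKM in DSS mice. DSS_ICB_Fp mice were close together, inside the range of both other groups. The log2 difference in DSS_ICB_Fp against DSS_ICB was 0.21 (SE 0.19, limma adjusted p = 0.522), and 0.04 without DSS_ICB 3.

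Insig1 and Insig2 encode the proteins that retain Scap. Insig1, which is itself a target of SREBP-2, had 43.9, 34.4, 55.5, 39.1 and 31.9 FPKM in DSS_ICB_Fp mice, against 46.1, 42.6, 11.3, 33.2 and 27.2 FPKM in DSS_ICB mice and 38.0, 42.1, 36.7, 45.6 and 51.7 FPKM in DSS mice. DSS_ICB mice 3, 4 and 5 were below every DSS mouse and mice 1 and 2 were within the DSS range. The log2 difference in DSS_ICB against DSS was -0.54 (SE 0.29, limma adjusted p = 0.469), and -0.21 without DSS_ICB 3. Insig2 had 10, 8.82, 8.87, 8.17 and 7.76 FPKM in DSS_ICB_Fp mice, against 8.77, 7.11, 10.7, 8.97 and 10.4 FPKM in DSS_ICB mice and 8.50, 10.5, 8.10, 9.70 and 10.9 FPKM in DSS mice. DSS_ICB 3 and DSS_ICB 5, the lowest mice of their group for Insig1, were the highest of their group for Insig2. Insig2 had the narrowest range of the tested members, its highest mouse being 1.53 times its lowest, and its log2 difference in DSS_ICB against DSS was -0.05 (SE 0.12, limma adjusted p = 0.879).

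Among genes of uptake and carriage, Stard4, a soluble carrier of sterols between membranes, had the largest log2 difference of all members in DSS_ICB against DSS. Its levels were 48.9, 33.5, 49.4, 29.1 and 32.3 FPKM in DSS_ICB_Fp mice, against 45.4, 42.1, 5.58, 29.6 and 17.2 FPKM in DSS_ICB mice and 47.2, 46.4, 26.2, 40.4 and 52.5 FPKM in DSS mice. DSS_ICB 3 and DSS_ICB 5 were below all other mice, and the remaining DSS_ICB mice were within the DSS range. Its log2 difference was -0.85 (SE 0.43, limma unadjusted p = 0.0652, adjusted p = 0.454), -0.39 without DSS_ICB 3 and -0.11 without both. In DSS_ICB_Fp against DSS_ICB it was 0.71 (SE 0.43, limma adjusted p = 0.335), and turned to -0.03 without both libraries.

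Npc1l1, the transporter that takes cholesterol from the gut lumen, was close to 0 in this tissue. Its highest value was 0.052 FPKM, in DSS_ICB_Fp 5, and it was listed at 0 in 4 of the 15 libraries. The means were 0.0213 FPKM in DSS_ICB_Fp mice, 0.0236 FPKM in DSS_ICB mice and 0.0189 FPKM in DSS mice. Exact two-sided permutation tests of the mice gave p = 0.81 for DSS_ICB_Fp against DSS_ICB, p = 0.897 for DSS_ICB_Fp against DSS and p = 0.579 for DSS_ICB against DSS, where the smallest p possible is 0.00794. At these levels a difference was not detectable.

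Of the 4 genes of export, receptor turnover and storage, Abca1 was high in DSS_ICB 3 and DSS_ICB 5, in which most enzymes were low. Abca1 (ENSMUSG00000015243, GRCm38 chromosome 4, 53030787 to 53159895, minus strand), an LXR target that passes cholesterol to apolipoproteins at the cell surface, had 3.13, 2.52, 2.58, 2.29 and 2.82 FPKM in DSS_ICB_Fp mice, against 2.94, 2.63, 6.67, 3.31 and 9.82 FPKM in DSS_ICB mice and 4.38, 3.33, 3.41, 2.32 and 2.17 FPKM in DSS mice. DSS_ICB 5 and DSS_ICB 3 were the highest of all 15 mice, and the other DSS_ICB mice lay within the range of the DSS mice. Macrophages are known for high Abca1, and the macrophage marker sum was 992.8 FPKM in DSS_ICB 5 but 189.1 FPKM, the lowest of all, in DSS_ICB 3, while neutrophil markers summed to 854.1 and 2010.5 FPKM in these mice, against 1.5 to 32.5 FPKM in DSS_ICB_Fp mice and 20.2 to 57.0 FPKM in DSS mice. Fibroblast markers summed to 724.0 and 651.7 FPKM in DSS_ICB 5 and DSS_ICB 3, and endothelial markers to 84.2 and 102.2 FPKM. These sums, too, were above those of all other mice. The part of any of these cell types in the Abca1 level was not tested. The log2 difference of Abca1 was -0.59 (SE 0.26, limma unadjusted p = 0.0396, adjusted p = 0.209) in DSS_ICB_Fp against DSS_ICB and 0.45 (SE 0.26, limma adjusted p = 0.491) in DSS_ICB against DSS. Without both libraries these were -0.11 and -0.04.

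Soat1, which esterifies cholesterol for storage, had 9.16, 10.6, 9.70, 6.90 and 10.6 FPKM in DSS_ICB_Fp mice, against 8.51, 6.99, 3.55, 7.02 and 8.55 FPKM in DSS_ICB mice and 8.09, 6.96, 7.44, 8.64 and 9.10 FPKM in DSS mice. Of the DSS_ICB_Fp mice, 4 were above every DSS_ICB mouse and every DSS mouse, and DSS_ICB_Fp 4 was below all but DSS_ICB 3. The log2 difference was 0.43 (SE 0.18, limma unadjusted p = 0.035, adjusted p = 0.197) in DSS_ICB_Fp against DSS_ICB, 0.24 without DSS_ICB 3 and 0.28 without both.

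Abcg1, another LXR-driven exporter, ranged from 0.685 to 2.63 FPKM, with its highest value in DSS_ICB 5 and its lowest in DSS_ICB 2. Its group means were 1.67 ± 0.413 FPKM in DSS_ICB_Fp mice, 1.52 ± 0.759 FPKM in DSS_ICB mice and 1.60 ± 0.363 FPKM in DSS mice (SD, n = 5 each). Mylip, an E3 ubiquitin ligase that marks lipoprotein receptors for degradation, ranged from 6.49 to 15.1 FPKM, and both of these extremes were DSS_ICB_Fp mice. In DSS_ICB_Fp against DSS_ICB the limma adjusted p was 0.738 for Abcg1 and 0.668 for Mylip.

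The enzymes varied together from mouse to mouse. Their summed FPKM was 435.7, 397.2, 536.9, 486.4 and 323.8 in DSS_ICB_Fp mice 1 to 5, against 544.6, 499.9, 115.2, 383.5 and 287.2 in DSS_ICB mice 1 to 5 and 536.1, 486.3, 290.4, 441.6 and 578.1 in DSS mice 1 to 5. Each group held at least 1 mouse well under the others. All 19 enzymes had their lowest value in DSS_ICB 3, where the enzymes stood at 0.261 times (median) their median over the 15 mice. In DSS 3 all 19 enzymes were below that median, at 0.653 times, and in DSS_ICB 5 it was 18 of 19, at 0.642 times. In DSS_ICB_Fp 5, 15 of 19 were below it, at 0.692 times. DSS 5 had the highest value for 10 of the 19 enzymes.

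The median spread of the enzymes within groups was wider than that of all tested genes. The median SD between mice on the log2 scale was 0.295 for the 19 enzymes and 0.226 for all tested genes in DSS_ICB_Fp mice, 0.766 and 0.372 in DSS_ICB mice (0.443 and 0.25 without DSS_ICB 3), and 0.361 and 0.22 in DSS mice. These are descriptions of the libraries, and no test of the spread was made. The scale was log2(FPKM + 1), which narrows the spread of low genes. The enzymes were not matched for level to all tested genes. The 4 sterol-sensing genes had median SDs of 0.152 in DSS_ICB_Fp mice, 0.444 in DSS_ICB mice (0.19 without DSS_ICB 3) and 0.244 in DSS mice.

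The low enzyme levels of DSS_ICB 3 went with few epithelial transcripts. Its 8 epithelial markers summed to 0.136 times the median of the 15 mice, and its enzymes came to 169 FPKM per 1000 FPKM of these markers, against 67.1 to 109 in the other 14 mice. DSS 3 differed: its epithelial marker sum, 4329.6 FPKM, was 0.866 times the median, and its enzyme sum per 1000 FPKM of epithelial markers was the lowest of all, 67.1. The sum was 81.2 per 1000 FPKM in DSS_ICB 5 and 75.1 in DSS_ICB_Fp 5. It was 73.7 in DSS_ICB_Fp 4, whose enzyme sum of 486.4 FPKM was not low and whose epithelial marker sum of 6603.5 FPKM was the highest of the 15 mice. How much of each enzyme level follows from the epithelial share was not tested.

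**Figure D4:**
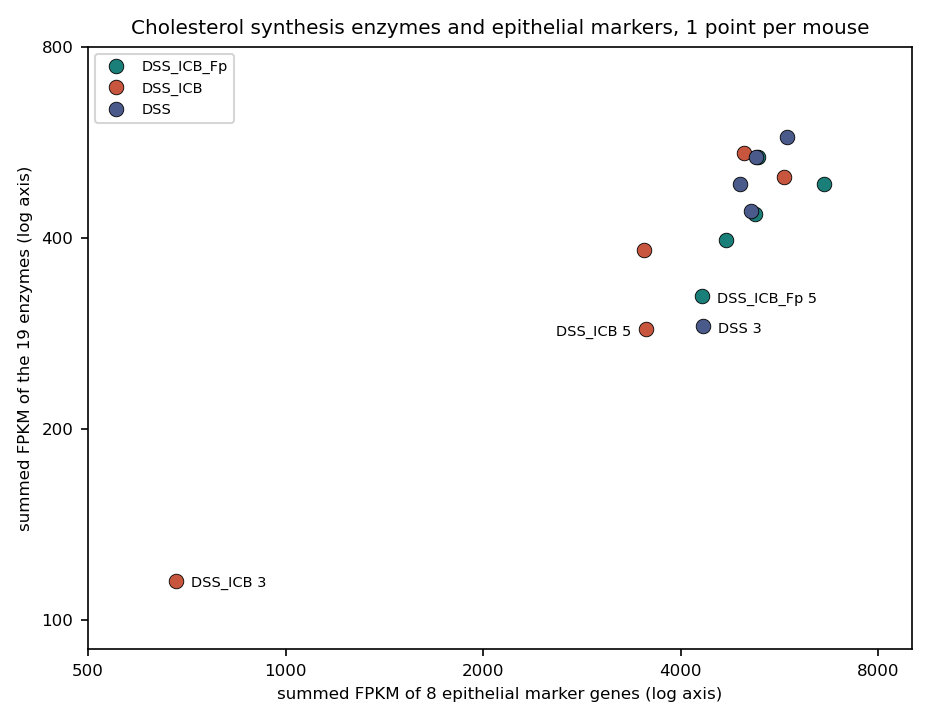
Summed FPKM of the 19 enzymes against the summed FPKM of 8 epithelial marker genes, both on log axes, with 1 point per mouse coloured by group. DSS_ICB 3 lies alone at 681.4 and 115.2 FPKM, and DSS 3, DSS_ICB_Fp 5 and DSS_ICB 5 lie under the other mice in enzyme level.

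When each library was scaled to its epithelial markers, the median of the members was -0.35 in DSS_ICB_Fp against DSS_ICB and 0.29 in DSS_ICB against DSS, both opposite in sign to the unscaled medians. That scaling moved the median of all tested genes as well, to -0.72 and 0.67. By construction the distance between the members and all genes did not depend on it: the median of the members was 0.37 above that of all genes in DSS_ICB_Fp against DSS_ICB and, as a difference, -0.38 from it in DSS_ICB against DSS, under either scaling. Without DSS_ICB 3 these distances were 0.11 and -0.13. Without DSS_ICB 3 and DSS_ICB 5 together they were -0.05 and -0.05.

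Of 6 relations between members examined across the 15 mice, those of Hmgcs1 with Idi1 and of Sqle with Insig1 were the tightest. Log2 levels of Hmgcs1 and Idi1 had a Pearson r of 0.90 (permutation p = 4e-05, adjusted over 6 relations 0.00018) and a Spearman rho of 0.81 (permutation p = 0.00045, adjusted 0.00135). Without the 2 mice farthest from the median of Hmgcs1, DSS_ICB 3 and DSS_ICB 5, r was 0.79. For deviations from the group means, r was 0.93. Sqle and Insig1 had an r of 0.93 (permutation p = 6e-05, adjusted 0.00018) and a rho of 0.82 (permutation p = 0.00023, adjusted 0.00135), with 0.73 left without DSS 5 and DSS_ICB 3. Both genes of a pair come from the same libraries and so share depth and tissue make-up.

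The r of Srebf2 with Insig1 and of Insig1 with Abca1 was weaker without the mice named below. Srebf2 and Insig1 had an r of 0.71 (permutation p = 0.0169, adjusted 0.0315) and a rho of 0.45 (permutation p = 0.0933, adjusted 0.14), and r was 0.30 without DSS 2 and DSS_ICB 3. Insig1 and Abca1 had an r of -0.69 (permutation p = 0.021, adjusted 0.0315) and a rho of -0.60 (permutation p = 0.0202, adjusted 0.0404), and r was -0.38 without DSS_ICB 3 and DSS_ICB 5. Insig1 with Insig2 gave an r of -0.24 (permutation p = 0.409, adjusted 0.409) and a rho of 0.06 (permutation p = 0.843, adjusted 0.843), and 0.45 was left without DSS_ICB 3 and DSS_ICB 5. Abca1 with Abcg1 gave an r of 0.33 (permutation p = 0.233, adjusted 0.28) and a rho of 0.26 (permutation p = 0.354, adjusted 0.425), with 0.30 left without the same mice. Taken as deviations from the group means, r was 0.77 for Srebf2 with Insig1 and -0.61 for Insig1 with Abca1. It was -0.30 for Insig1 with Insig2 and 0.52 for Abca1 with Abcg1.

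Lists of neighbouring genes were set beside the members: 12 genes of fatty acid synthesis and 27 other genes of sterol handling, of which 38 in all were tested. Limma called none of the 38 in any comparison. In DSS_ICB_Fp against DSS_ICB, 7 were higher and 2 lower at an unadjusted p of 0.05, against a background of 9.34% higher and 12.4% lower, with a median log2 difference of 0.23. In DSS_ICB against DSS 2 were higher and 2 lower, against 7.08% higher and 4.22% lower of all genes, with a median of -0.16. In DSS_ICB_Fp against DSS none had an unadjusted p under 0.05, where 1.41% of all genes had, and the median was 0.06. Without DSS_ICB 3 the medians of these 38 were 0.08 and -0.05 in the comparisons that include DSS_ICB.

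Ch25h, which makes an oxysterol that restrains SREBP-2 processing, came nearest to the threshold. It had 0.411, 0.343, 1.03, 0.986 and 0.707 FPKM in DSS_ICB_Fp mice, against 1.46, 3.61, 7.29, 2.36 and 4.86 FPKM in DSS_ICB mice and 1.70, 1.71, 2.70, 0.336 and 0.393 FPKM in DSS mice. Every DSS_ICB_Fp mouse was below every DSS_ICB mouse, as were 2.46% of all tested genes, and the highest DSS_ICB levels were those of mice 3 and 5. The log2 difference was -1.43 (SE 0.33, limma adjusted p = 0.0713), and -1.21 without DSS_ICB 3 (limma adjusted p = 0.0919) and -1.01 without DSS_ICB 3 and DSS_ICB 5. In DSS_ICB against DSS it was 1.04 (SE 0.33, limma adjusted p = 0.418), and 0.62 without both.

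Acss2, a target of SREBP that makes acetyl-CoA from acetate, had 15.8, 18.2, 15.7, 10.8 and 16.0 FPKM in DSS_ICB_Fp mice, against 12.3, 10.3, 0.966, 7.14 and 2.43 FPKM in DSS_ICB mice and 11.5, 11.1, 9.61, 14.0 and 14.3 FPKM in DSS mice. DSS_ICB_Fp 4 lay within the DSS_ICB range, and the other DSS_ICB_Fp mice were above it. The log2 difference was 1.41 (SE 0.41, limma adjusted p = 0.102), 1.0 without DSS_ICB 3 and 0.59 without DSS_ICB 3 and DSS_ICB 5. It was -1.10 in DSS_ICB against DSS (SE 0.41, limma adjusted p = 0.43), -0.69 without DSS_ICB 3 and -0.28 without both.

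Abcg8, a subunit of the transporter that returns sterols to the lumen, averaged 2.15 ± 1.09 FPKM in DSS_ICB_Fp mice and 0.774 ± 0.948 FPKM in DSS_ICB mice (SD, n = 5 each), with a log2 difference of 0.89 (SE 0.30, limma adjusted p = 0.124), and 0.53 without DSS_ICB 3 and DSS_ICB 5. Gramd1a, a carrier of cholesterol at membrane contacts, had a log2 difference of 0.81 (SE 0.33, limma adjusted p = 0.43) in DSS_ICB against DSS, with its highest values in DSS_ICB 3 (12.2 FPKM) and DSS_ICB 5 (11.6 FPKM), and 0.34 was left without both. In DSS_ICB_Fp against DSS the smallest unadjusted p values belonged to Gramd1b, Elovl5 and Stard3, with log2 differences of 0.20, -0.18 and 0.26, each with a limma adjusted p of 1.0.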

How the data were processed

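RNA of 15 colons, 5 per group, was sequenced, with 1 file per mouse. Per the submitters' processing notes, the tools were FastQC, STAR 2.5, Cuffnorm and DESeq with the build mm10. The deposited values are the authors' FPKM, a unit taken from Cuffnorm being named there and from values that are not whole. Any further scaling between libraries is not given in the sources used here. Of 55335 gene identifiers, 55154 matched a symbol in GENCODE M21 (GRCm38).

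Depth, estimated from the steps between low FPKM values of 19530 genes with 1 transcript, assumes no further scaling. Only 35.6% to 42.0% of low values lay within 0.03 log2 of a whole step, so whole reads were not recovered and tests for counts were not used.

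Genes with at least 1 FPKM in at least 5 libraries (14385) were fitted as log2(FPKM + 1), which understates the change of low genes, with limma 3.58.1 in R 4.3.3 (trend and robust). All 15 libraries entered 1 fit with 3 contrasts, and p-values were adjusted over all genes by Benjamini-Hochberg. The fit was tested on simulated data with independent genes and the same spread in all 3 groups. The real DSS_ICB mice had a wider spread and the enzymes varied together, a setting that the simulation does not cover. Relations between members used 100000 permutations.

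The members, roles and lists were chosen with earlier results of these data known. Values per mouse are given for the 4 members with the smallest p in each comparison and for Hmgcs1, Idi1, Sqle, Dhcr7, Srebf2, Insig1, Insig2 and Abca1, and of the other pathway genes the 3 with the smallest p in each comparison are named. The p-values set each difference against the spread between these mice, pooled over the 3 groups. The labels do not say whether the mice of a group shared a cage or a batch. If they did, treatment and cage or batch cannot be told apart. Alternatives in scaling, pseudocount, filter, design, weights and libraries were tried. Sequences are from RefSeq (GRCm38.p6).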

Additional observations from a re-analysis of the deposited data

Results flagged for a closer look

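In 9 of 84 groups of 5 mice, 1 mouse stood apart from the rest of its group, with a gap to the nearest mouse above 0.71 of the range of the group on the log2(FPKM + 1) scale. Levels below are in FPKM. Chance gives about 1 in 20, or 4.2 of 84, and neighbouring genes of a pathway are not independent. DSS_ICB 3 stood apart on the low side in 5 groups: Cyp51 at 6.61 FPKM, Lbr at 11.6 FPKM, Sc5d at 7.82 FPKM, Srebf2 at 13 FPKM and Soat1 at 3.55 FPKM. DSS 3 was low for Pmvk at 11.5 FPKM and for Msmo1 at 19.5 FPKM. DSS_ICB_Fp 2 was high for Tm7sf2 at 5.92 FPKM and low for Srebf2 at 19.6 FPKM. Idi1, the member with the widest range, was not among them in any group. The causes were not tested.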

How the results depend on the processing

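No member passed an adjusted p of 0.05 in limma under the 26 alternatives tried. The lowest adjusted p was 0.072, for Ebp in DSS_ICB_Fp against DSS_ICB without DSS_ICB 1, at a log2 difference of 0.80. No paired analysis was possible because the numbers of the mice were given in accession order and match no mouse of another group. Of 1242 repeats of the 48 differences of the 16 members given per mouse, 61 turned their direction, counting values that round to 0 as having none. The median of the members turned to -0.35 in DSS_ICB_Fp against DSS_ICB and to 0.29 in DSS_ICB against DSS relative to epithelial markers, a scaling that subtracts 1 value per library and so moves all genes alike. It was -0.11 in DSS_ICB_Fp against DSS_ICB without DSS_ICB 3 and DSS_ICB 5. With 1 mouse left out at a time, the median ran from 0.04 to 0.50 in DSS_ICB_Fp against DSS_ICB, from -0.16 to 0.00 in DSS_ICB_Fp against DSS, and from -0.53 to -0.07 in DSS_ICB against DSS. The extremes nearest 0 of the comparisons with DSS_ICB were those without DSS_ICB 3. For the cases below, the cause was not tested beyond what each alternative leaves out or rescales.

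Relative to epithelial markers, the log2 differences that turned in DSS_ICB_Fp against DSS_ICB were Hmgcs1 -0.24, Idi1 -0.13, Sqle -0.36, Tm7sf2 -0.08, Msmo1 -0.19, Srebf2 -0.61, Scap -0.46, Insig1 -0.22 and Soat1 -0.25. In DSS_ICB against DSS they were Hmgcs1 0.06, Idi1 0.32, Sqle 0.10, Lbr 0.45, Tm7sf2 0.25, Hsd17b7 0.42, Ebp 0.11, Srebf2 0.61, Scap 0.61, Insig1 0.11, Insig2 0.60 and Soat1 0.42. In DSS_ICB_Fp against DSS it was Srebf2 alone, at -0.01.

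Without DSS_ICB 3 and DSS_ICB 5 together, those that turned in DSS_ICB_Fp against DSS_ICB were Hmgcs1 -0.16, Idi1 -0.33, Sqle -0.24, Srebf2 -0.13, Insig2 0.07 and Stard4 -0.03. In DSS_ICB against DSS they were Idi1 0.54, Sqle 0.01, Lbr 0.05, Tm7sf2 0.01, Srebf2 0.15, Scap 0.15 and Abca1 -0.04.

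With array quality weights, those that turned were Idi1 -0.13, Sqle -0.08, Srebf2 -0.11 and Insig2 0.02 in DSS_ICB_Fp against DSS_ICB, Srebf2 -0.05 in DSS_ICB_Fp against DSS, and Idi1 0.26 and Srebf2 0.06 in DSS_ICB against DSS.

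With 1 mouse left out at a time, these members ran through 0. In DSS_ICB_Fp against DSS_ICB, Idi1 ran from -0.12 to 0.84, Sqle from -0.03 to 0.52, Lbr from -0.30 to 0.02 and Srebf2 from -0.14 to 0.15. In DSS_ICB_Fp against DSS, Idi1 ran from -0.23 to 0.44, Dhcr7 from -0.03 to 0.13 and Srebf2 from -0.07 to 0.10. In DSS_ICB against DSS, Idi1 ran from -0.77 to 0.33, Lbr from -0.29 to 0.01, Hsd17b7 from -0.37 to 0.03, Srebf2 from -0.14 to 0.16, Scap from -0.17 to 0.13 and Insig2 from -0.10 to 0.03.

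Depth limits the low members: FPKM near 1, as for Abcg1, rest on few fragments, and Npc1l1 could not be compared.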
